A study of Homo sapiens with 6 samples.

Results

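The 14 genes described here encode Jumonji C (JmjC) lysine demethylases and their close relatives: KDM2A, KDM4A, KDM4B, KDM4C, KDM4D, KDM4E, KDM5A, KDM5B, KDM5C, KDM6B, KDM8, JHDM1D (now named KDM7A), PHF2 and PHF8. They were targeted in a pooled short hairpin RNA (shRNA) screen, and every hairpin whose gene symbol was on this list was taken, regardless of its counts. This gave 112 of the 7293 hairpins seen in any library and 14 of 912 genes, with 8 hairpins for each gene. Each hairpin is named by its gene and its library number, as in KDM4D.2897. The guide sequences of these hairpins were not analysed here.

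Of the 14 genes, 3 lie on chromosome 11, namely KDM2A (67119263 to 67258082), KDM4D (94973709 to 94999519) and KDM4E (95025258 to 95027596), all on the forward strand of GRCh38 in GENCODE 44. KDM4A (43650149 to 43705518, forward) and KDM5B (202724495 to 202808487, reverse) lie on chromosome 1. KDM4C (6720863 to 7175648) and PHF2 (93576584 to 93679587) are both on the forward strand of chromosome 9. The X chromosome carries KDM5C (53176283 to 53225422) and PHF8 (53936676 to 54048958), both in reverse. KDM4B is on chromosome 19 (4969113 to 5153598, forward), KDM5A on 12 (280057 to 389320, reverse), KDM6B on 17 (7834217 to 7854796, forward), JHDM1D on 7 (140084746 to 140176983, reverse) and KDM8 on 16 (27203508 to 27221768, forward). These positions locate the genes; the sites of the single hairpins within them were not mapped.

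The purpose of the screen was to find chromatin regulators whose knockdown changes how leukaemia cells respond to azacitidine (AZA), a cytidine analogue given in myelodysplastic syndromes (MDS) that enters both RNA and DNA. SKK-1 cells, an established acute myeloid leukaemia line that arose from MDS, were transduced in 3 separate cultures with the lentiviral Epi9 pool at a low titre and selected with puromycin. Every culture was then divided. One part stayed untreated (untreated 1 to 3) and the other received 0.25 µM AZA every 2 days (AZA 1 to 3), and genomic DNA was taken on day 14. All 6 libraries therefore came from cells carrying the pool, with the same vector, the same selection and no other treatment. Untreated and AZA libraries of one number were taken to share a transduced culture, which the labels do not state. The hairpins were expressed in a microRNA-type backbone from the SFFV promoter, and how far each one lowered its target was not measured in the files used here.

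JmjC enzymes are dioxygenases that use iron and 2-oxoglutarate to oxidise methyl groups on lysine, which releases them as formaldehyde. The subfamilies differ in the histone mark they act on. KDM2A acts on H3K36, the KDM4 enzymes on H3K9 and, for some of them, H3K36, the KDM5 enzymes on H3K4 at promoters, and KDM6B on H3K27, the mark placed by Polycomb complexes. JHDM1D, PHF2 and PHF8 bind methylated H3K4 through a PHD finger and have been tied to the removal of repressive methylation, and KDM8 is a distant relative whose lysine demethylase activity is disputed.

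The readout is the abundance of a hairpin in the genomic DNA of a library, in CPM, the count divided by the library total and scaled up by a fixed factor that is the same for all libraries. A hairpin that is less abundant with AZA can mark cells that were lost, or divided less, relative to the rest of the pool. Abundance also varied between libraries of one group, as given below. Library totals ran from 12292575 to 22587662 counts, the member hairpins held between 1.42% and 1.47% of the counts in each library, and a hairpin with 0 counts could be present at up to 0.133 to 0.244 CPM, depending on the library (3 counts). Untreated libraries resembled each other less than AZA libraries did: the correlation of log2 CPM over all hairpins lay between 0.382 and 0.397 among untreated pairs and between 0.522 and 0.546 among AZA pairs. For 29 of the 111 member hairpins with a count in an untreated library (26.1%), the highest of the 3 untreated values was over 10-fold above the lowest, but this was so for only 5 of 112 (4.46%) among the AZA values. The shares over the whole pool were 23.4% and 5.23%. No library of the pool before culture was used here, so loss of a hairpin in culture and a low starting share cannot be told apart.

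Without drug, the members spanned the whole range of the pool. Their mean untreated abundance ran from 0 to 918 CPM, with a median of 105 CPM, the same to 3 digits as that of all hairpins. The most abundant was KDM4D.2897, at percentile 99.9 of the pool, followed by KDM2A.4660 (674 CPM, percentile 99.3) and KDM5B.965 (482 CPM, percentile 98.0). At the other end, KDM6B.2428 had 0 counts in all 3 untreated libraries and in AZA 1, 20.1 CPM in AZA 2 and 0.0885 CPM in AZA 3. It was the only one of the 112 member hairpins that did not pass the count filter (CPM above 0.5 in at least 3 libraries), which left 111 tested members among 7262 tested hairpins. Another 4 member hairpins were at 0 in 1 library each. These were KDM4A.1357 and KDM4B.2226 in untreated 2, KDM5C.2146 in untreated 3 and KDM6B.3831 in untreated 1.

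No member hairpin differed between AZA and untreated libraries at an adjusted p below 0.05 (edgeR quasi-likelihood test, Benjamini-Hochberg adjustment over all tested hairpins), a call made for 0.0689% of the pool. The smallest adjusted p among the members was 0.751. At an unadjusted p below 0.05, 2 of 111 members (1.80%) were lower with AZA, against 3.72% of all tested hairpins, and 2 (1.80%) were higher, against 1.9%. Without a model, all 3 AZA values lay below all 3 untreated values for 3 of 112 members (2.68%, against 4.29% of the pool) and above them for 9 (8.04%, against 9.13%). Those values were CPM on library totals, whereas fold changes and pair directions also used TMM normalisation. With TMM, AZA was the lower in 1 pair for KDM4C.2367, PHF2.4745 and KDM8.2139, which are among the 9. The log2 fold change was below 0 for 66 of 111 members (59.5%), where the pool had 54.9%. The member shares lay near or below those of the pool. Leaving out single libraries moved the counts at an unadjusted p below 0.05 for members and pool alike. Without untreated 1, 6 members were lower and 3 higher (4.52% and 4.11% of the pool), and without untreated 3, 4 were lower and 4 higher (4.59% and 3.56%). Without AZA 1, 1 member was lower and 0 were higher (2.33% and 0.925% of the pool), and without AZA 3, 2 were lower and 1 was higher (2.53% and 0.925%). The edgeR exact test also called no member, whereas DESeq2's Wald test, which called 1.88% of the hairpins it tested, called PHF2.4714.

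KDM2A, the H3K36 demethylase of CpG islands, had the most even set of hairpins. Of its 8 hairpins, 7 had a log2 fold change below 0, but the sizes were small, between -0.70 for KDM2A.1829 and 0.30 for KDM2A.421, with a mean of -0.23 ± 0.30 (SD, 8 hairpins). Its abundant hairpin KDM2A.4660 was at 734, 769 and 517 CPM in untreated 1 to 3 and at 829, 418 and 494 CPM in AZA 1 to 3. The AZA values surrounded the untreated ones, and the log2 fold change was -0.38 ± 0.31 (SE, adjusted p = 0.991, edgeR), or -0.20 without AZA 2 and -0.73 without AZA 1. In none of the 8 KDM2A hairpins were the groups apart.

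Hairpins against the KDM4 subfamily, 40 of the 111 tested members, contained both of the members that were lower at an unadjusted p below 0.05 (edgeR). They also held 1 of the members that were higher. Over all tested hairpins, 3.72% were lower and 1.9% higher at that level. KDM4D and KDM4E are short H3K9 demethylases, without the reader domains of KDM4A, KDM4B and KDM4C, and their genes lie close together on chromosome 11.

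For KDM4D.2897, abundance was 830.0, 1351 and 573 CPM in untreated 1 to 3 and 451, 529 and 654 CPM in AZA 1 to 3. The groups overlapped, because AZA 3 was above untreated 3, and the hairpin was lower with AZA in 2 of 3 pairs. Its log2 fold change was -0.93 ± 0.33 (adjusted p = 0.751, edgeR), and -0.51 without untreated 2. In contrast, KDM4D.646 was at 80.0, 37.1 and 14.0 CPM without drug and at 212, 139 and 219 CPM with AZA, so the groups were apart in the other direction and all 3 pairs were higher. Its log2 fold change was 1.97 ± 0.75 (adjusted p = 0.785, edgeR). These hairpins against one gene thus lay on opposite sides, and the remaining 6 KDM4D hairpins ranged from -0.80 (KDM4D.473) to 0.70 (KDM4D.1007). The mean over the 8 was 0.07 ± 0.98 (SD), with 4 on either side of 0.

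KDM4E.2289 was at 157, 486 and 377 CPM in untreated 1 to 3 and at 113, 199 and 124 CPM in AZA 1 to 3. It was lower in 3 of 3 pairs, although AZA 2 exceeded untreated 1, and its log2 fold change was -1.40 ± 0.48 (adjusted p = 0.751, edgeR). Of the 8 KDM4E hairpins, 6 were below 0 and the mean was -0.33 ± 0.70 (SD). The highest was KDM4E.1787, whose AZA values (110, 164 and 173 CPM) were all above the untreated ones (85.7, 19.8 and 95.2 CPM). Its log2 fold change was 1.00 ± 0.73 (adjusted p = 0.991, edgeR).

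KDM4A and KDM4B, which remove H3K9 and H3K36 methylation, had hairpins with wide differences in both directions. KDM4A.4317 was the lowest of its gene, at 148, 49.1 and 63.2 CPM untreated and 23.4, 19.2 and 40.6 CPM with AZA, with the groups apart and a log2 fold change of -1.80 ± 0.95 (adjusted p = 0.898, edgeR), or -1.20 without untreated 1. The other end of the gene was KDM4A.1357, at 19.5, 0 and 6.21 CPM untreated and 44.4, 0.0985 and 52.5 CPM with AZA, for a log2 fold change of 1.77 ± 2.22. KDM4A.3256 was also lower in 3 of 3 pairs, at 156, 103 and 254 CPM against 106, 56.9 and 138 CPM, with overlapping groups (-0.93 ± 0.61). KDM4A was split evenly, with 4 hairpins below and 4 above 0 and a mean of -0.10 ± 1.04 (SD). KDM4B held both the lowest and the highest log2 fold change of all members. KDM4B.1110 was lower in every pair, at 30.2, 95.8 and 145 CPM untreated and 8.25, 35.0 and 27.5 CPM with AZA, but the groups overlapped (-2.11 ± 1.03, adjusted p = 0.898, edgeR). KDM4B.3057 was lower in 3 of 3 pairs as well, at 37.9, 176 and 135 CPM against 24.1, 104 and 32.8 CPM, again with overlapping groups (-1.30 ± 0.88). KDM4B.2226 was nearly absent without drug, at 2.12, 0 and 6.06 CPM, and was at 66.0, 8.86 and 33.0 CPM with AZA, so that the groups were apart (3.56 ± 2.09, adjusted p = 0.951, edgeR). The SD over the 8 KDM4B hairpins was 1.68, the widest of the 14 genes, around a mean of 0.05.

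KDM4C, which has the same reader domains as KDM4A, resembled KDM2A in that 7 of 8 hairpins were below 0 with a narrow spread (-0.21 ± 0.50, SD). The lowest was KDM4C.766, at 352, 212 and 552 CPM untreated and 254, 207 and 249 CPM with AZA. It was lower in 3 of 3 pairs, but only slightly in the second, and had a log2 fold change of -0.81 ± 0.39 (adjusted p = 0.898, edgeR), or -0.41 without untreated 3. The single hairpin above 0 was KDM4C.2367, whose AZA values (131, 170 and 201 CPM) were all above the untreated values (122, 78.8 and 44.8 CPM). That held for CPM on library totals. With TMM normalisation, AZA 1 was slightly below untreated 1 (pair difference -0.029 in log2 CPM).

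The KDM5 subfamily removes methyl groups from H3K4, and its 3 members did not share a direction. For KDM5A, 6 of 8 hairpins were below 0 and the mean was -0.34 ± 0.70 (SD), the lowest of the 14 genes. KDM5A.1517 was the steadiest of them without drug, at 240, 236 and 275 CPM, and was at 235, 90.9 and 86.6 CPM with AZA. The groups did not overlap, but AZA 1 lay just under the untreated range, and the log2 fold change was -1.03 ± 0.50 (adjusted p = 0.898, edgeR). KDM5A.6461 was the highest of the gene, at 37.1, 109 and 87.9 CPM against 208, 107 and 270.0 CPM (1.15 ± 0.65), with overlapping groups. Without AZA 1, KDM5A.1517 was at -1.66.

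KDM5B went the other way in count, with 5 of 8 hairpins above 0 and a mean of 0.36 ± 1.06 (SD), the highest of the 14 genes. Its top hairpin was also one of the rarest: KDM5B.1948 was at 22.5, 2.77 and 5.70 CPM untreated and at 23.7, 125 and 10.3 CPM with AZA. A single library, AZA 2, was far above the others, and the log2 fold change was 2.22 ± 1.51 (adjusted p = 0.986, edgeR), or 0.58 without that library. The lowest, KDM5B.1319, had tight untreated values of 113, 95.4 and 112 CPM and AZA values of 41.2, 43.9 and 91.6 CPM. Here the groups were apart, with a log2 fold change of -1.02 ± 0.73 (adjusted p = 0.991, edgeR). KDM5C, the X-linked member, had 5 of 8 hairpins below 0 (-0.25 ± 0.59, SD). Its most steady difference was upward, in KDM5C.812, at 91.5, 165 and 122 CPM against 223, 254 and 215 CPM, with the groups apart and a log2 fold change of 0.70 ± 0.47 (adjusted p = 0.983, edgeR). KDM5C.2449, at 174, 57.6 and 19.4 CPM against 53.8, 11.4 and 71.4 CPM, was the lowest (-1.03 ± 1.05).

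KDM6B, which opposes Polycomb by removing H3K27 methylation, stood highest among the members once the hairpins were combined on the log scale. Of its 7 tested hairpins, 5 were above 0 and 2 below, with a mean log2 fold change of 0.28 ± 0.46 (SD). Groups were apart for 1 of them, KDM6B.6339, at 72.6, 81.2 and 126 CPM untreated and 209, 186 and 167 CPM with AZA (0.84 ± 0.55, adjusted p = 0.980, edgeR). For 4 of the other 6, the highest untreated value was over 10-fold above the lowest. KDM6B.3831 was at 0, 120 and 72.4 CPM against 142, 114 and 61.0 CPM with AZA, and KDM6B.1858 was at 106, 91.4 and 0.509 CPM against 38.8, 55.3 and 150 CPM. KDM6B.2098 was at 115, 8.76 and 6.41 CPM against 114, 18.7 and 41.3 CPM. The lowest hairpin of the gene by log2 fold change, KDM6B.4965, was at 64.3, 7.60 and 334 CPM against 160.0, 35.5 and 161 CPM (-0.35 ± 1.04). The lowest untreated value thus fell in a different culture for different hairpins, and in all 4 of these the groups overlapped.

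Of the PHD-finger relatives, JHDM1D leaned upward and PHF2 and PHF8 downward, and each spanned both sides of 0. JHDM1D, a demethylase of H3K9 and H3K27, had 5 of 8 hairpins above 0 and a mean of 0.31 ± 0.65 (SD). JHDM1D.6688 was at 135, 25.9 and 283 CPM untreated and 318, 235 and 328 CPM with AZA. Every pair was higher with AZA, but AZA 2 lay below untreated 3 (0.83 ± 0.66, adjusted p = 0.991, edgeR). Without untreated 2 the value was 0.34 and without untreated 3 it was 1.73. The extremes of the gene were JHDM1D.2778 (1.19 ± 1.01) and JHDM1D.818 (-0.79 ± 1.02), both with an untreated range of over 10-fold.

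PHF2, whose activity on H3K9 depends on phosphorylation, held the member hairpin with the smallest unadjusted p. PHF2.4714 was at 40.1, 34.9 and 8.60 CPM untreated and 249, 84.9 and 168 CPM with AZA. The groups were apart and all 3 pairs were higher, with a log2 fold change of 2.43 ± 0.83 and an adjusted p of 0.751 in edgeR. DESeq2's Wald test gave 2.41 with an adjusted p of 0.0460. PHF2.4745 also had its groups apart in CPM on library totals, at 43.2, 79.0 and 62.4 CPM against 83.3, 82.4 and 79.7 CPM, but its log2 fold change was small (0.24 ± 0.78). With TMM normalisation its groups overlapped, because AZA 2 was below untreated 2 by 0.13 in log2 CPM (pair difference -0.13). The remaining PHF2 hairpins did not follow: 6 of 8 were below 0, down to PHF2.1908 at 28.1, 256 and 237 CPM against 57.9, 58.9 and 70.1 CPM (-1.66 ± 0.79). The mean over the gene was -0.24 ± 1.22 (SD). PHF8, an X-linked demethylase of H3K9 and H4K20, had 5 of 8 hairpins below 0 (-0.24 ± 0.75, SD). Its lowest was PHF8.188, at 40.3, 137 and 11.8 CPM against 2.97, 45.1 and 33.6 CPM, lower in 2 of 3 pairs (-1.39 ± 1.31, adjusted p = 0.991, edgeR), and rested on untreated 2, without which it was -0.075. The highest PHF8 hairpin, PHF8.1685, reached 0.76 ± 0.81, and no PHF8 hairpin had its groups apart.

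For KDM8, 5 of 8 hairpins were above 0, with a mean of 0.14 ± 0.70 (SD). KDM8.2139 was at 21.8, 82.9 and 0.662 CPM untreated and 86.8, 82.9 and 127 CPM with AZA. The untreated values spread over more than 10-fold, and untreated 2 and AZA 2 were practically equal (1.31 ± 1.25, adjusted p = 0.991, edgeR). Without untreated 2 the value was 3.01, and without untreated 3 it was 0.73. KDM8.755 was lower in 3 of 3 pairs, at 47.9, 32.2 and 19.1 CPM against 22.5, 17.8 and 12.7 CPM, but the groups overlapped (-1.06 ± 1.34).

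The number in a hairpin's name marks its place along the transcript, which made it possible to ask whether hairpins against nearly the same site behaved alike. In the portion of the library table that could be read, which holds no guide of these 14 genes, the sequences of 320 of 320 same-gene pairs whose numbers differed by at most 20 were shifted against each other by exactly that number of bases. By this measure, 9 pairs of member hairpins (18 hairpins) share part of their 22-base target. KDM8.1319 and KDM8.1320, 1 base apart, had log2 fold changes of -0.15 and -0.20, and KDM4D.1007 and KDM4D.1015, 8 bases apart, had 0.70 and 0.60. In contrast, KDM4C.2367 and KDM4C.2368, also 1 base apart, had 0.87 and -0.23, and KDM8.2139 and KDM8.2140 had 1.31 and 0.17. The sign was shared in 6 of 9 pairs. The median absolute difference was 0.88 within overlapping pairs and 0.70 within the 376 other pairs of hairpins against the same gene, so the typical overlapping pair was no closer than the rest, a difference that was not tested. Such pairs are not independent of each other, but they were counted as separate hairpins throughout.

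By a criterion of 5 or more hairpins on one side of 0, 8 of 14 member genes leaned lower with AZA (57.1%, against 48.4% of all genes): KDM2A, KDM4B, KDM4C, KDM4E, KDM5A, KDM5C, PHF2 and PHF8. Another 4 leaned higher (28.6%, against 27.3%), namely KDM5B, KDM6B, JHDM1D and KDM8, and KDM4A and KDM4D met neither. This split depended on the scaling of the libraries. With TMM normalisation, the midpoint of the pool was a log2 fold change of -0.10, and with library totals alone that midpoint was 0.07. The member genes were then split into 4 lower and 5 higher, where all genes had 30.4% lower and 44.4% higher. With the replicate number as a block, 3 members leaned lower and 6 higher, against 32.1% and 46.1% of all genes. Members and pool thus shifted the same way. Without untreated 1 there were 5 members lower (44.6% of all genes), and without untreated 2, untreated 3, AZA 1 or AZA 2 there were 2 higher (25% to 32.8% of all genes).

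When each gene was summarised as the mean log2 CPM of its hairpins in every library (TMM, prior count 2), so that the libraries and not the hairpins were the replicates, none of the 14 members was called at an adjusted p below 0.05 (limma). Over all 912 genes, 1.21% were called, all of them higher with AZA. At an unadjusted p below 0.05, 2 of 14 members (14.3%) were higher, KDM6B and JHDM1D, against 14.3% of all genes, and 0 were lower, against 0.658%. With the replicate block, KDM6B was the 1 member left at that level, against 16.2% of all genes higher. This measure lay above 0 for most of the pool, with a median difference of 0.25 and 70.3% of genes above 0, and the members were read against that. Of the 14, 12 were above 0 and 8 were below the median of all genes. The sign differed between the scales for KDM2A, KDM4A, KDM4C, KDM5C, PHF2 and PHF8, whose mean edgeR log2 fold changes were below 0 and whose differences in mean log2 CPM were above 0. KDM4B, which leaned lower by its number of hairpins, was above 0 on both scales, at 0.05 and 0.37.

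KDM6B had the largest difference of the members and ranked 50 of 912 genes. Its mean log2 CPM was 5.40, 5.09 and 5.46 in untreated 1 to 3 and 6.95, 6.25 and 6.55 in AZA 1 to 3. The groups were apart, and the pairs differed by 1.55, 1.16 and 1.09. Single hairpins carried much of this in pairs 1 and 3. In pair 1, KDM6B.3831 differed by 10.3 and the other tested hairpins by -1.58 to 1.39. In pair 3, KDM6B.1858 differed by 7.78 and the others by -1.30 to 2.50. Pair 2 ran from -0.92 to 3.14 over the tested hairpins. The difference for the gene was 1.27 ± 0.28 (SE, 95% interval 0.63 to 1.9, adjusted p = 0.0762, limma). KDM6B passed the threshold with library totals (1.43, adjusted p = 0.0429, limma), where 2.19% of genes were called, and when KDM6B.2428 entered because no count filter was applied (1.46, adjusted p = 0.0427, limma), where 1.32% were called. It did not pass with the replicate block (adjusted p = 0.0619, limma, 2.19% of genes called). When counts were summed over the hairpins before the test, so that rare hairpins carried little weight, the difference was 0.24 (adjusted p = 0.695, edgeR), and with the median over hairpins it was 0.69 (adjusted p = 0.634, limma). Leaving out AZA 1 lowered it to 1.08 (adjusted p = 0.337, limma).

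JHDM1D was the second member by p. Its mean log2 CPM was 7.01, 6.36 and 6.68 untreated and 7.32, 7.31 and 7.26 with AZA, a difference of 0.61 ± 0.27 (95% interval 0.01 to 1.22, adjusted p = 0.333, limma). All 3 AZA values were above all untreated values and had an SD of 0.036. A difference above 0 in 3 of 3 pairs was seen for 3 members (21.4%, against 29.4% of all genes), namely KDM6B, JHDM1D and KDM5B. For KDM5B the first pair differed by only 0.0055, against 1.26 in the second and 0.084 in the third (0.45 ± 0.36, adjusted p = 0.610, limma). KDM8 differed by 0.55 ± 0.29, with an interval of -0.10 to 1.20 (adjusted p = 0.395, limma), KDM4B by 0.37 ± 0.42 and KDM4D by 0.25 ± 0.26.

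The remaining 8 members lay between -0.22 ± 0.32 for KDM4E and 0.20 ± 0.32 for PHF8. KDM4E, with an interval of -0.94 to 0.49, and KDM5A, at -0.07 ± 0.43 with an interval of -1.04 to 0.90, were the only members below 0. For KDM2A the interval was -0.60 to 0.68 around 0.04, and for PHF2 it was -0.56 to 0.70 around 0.07. The intervals of these 8 genes all reached -0.52 or lower and 0.49 or higher. With 3 libraries a group, differences within those bounds were thus not excluded for any of them.

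Between subfamilies, KDM6, with its single gene, differed from the others in the same direction in every pair. Its value in pair 1 rested largely on KDM6B.3831, which differed by 10.3 there (0 counts in untreated 1). That in pair 3 rested largely on KDM6B.1858, which differed by 7.78 (10 counts in untreated 3). The mean log2 CPM difference in pairs 1 to 3 was 1.55, 1.16 and 1.09 for KDM6, -0.04, 0.24 and 0.15 for KDM4, 0.10, 0.02 and 0.38 for KDM5, and -0.06, 0.48 and 0.45 for JHDM1D, PHF2 and PHF8 together. Over the 3 pairs, KDM2 minus KDM6 was -1.23 ± 0.29 (mean ± SD), KDM4 minus KDM6 was -1.15 ± 0.38 and KDM5 minus KDM6 was -1.10 ± 0.37. KDM6 minus the PHD-finger group was 0.98 ± 0.54 and KDM6 minus KDM8 was 0.72 ± 0.51. KDM4, KDM5 and the PHD-finger group differed from each other by less, and the sign of each of these differences changed between pairs. For KDM4 against KDM5 it was -0.05 ± 0.24. KDM2 and KDM8 were each variable between pairs, at 0.65, -0.24 and -0.30 for KDM2 and 0.88, -0.09 and 0.86 for KDM8. KDM2 minus KDM8 was nevertheless below 0 in all 3 pairs, at -0.23, -0.14 and -1.16. Differences between subfamilies were described and not tested.

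On the edgeR scale the same groups lay closer together. The mean log2 fold change was -0.23 for KDM2, -0.10 for KDM4, -0.07 for KDM5, 0.28 for KDM6, -0.05 for the PHD-finger group and 0.14 for KDM8, where the mean over all tested hairpins was 0.00107. The SD among single hairpins was 0.30 within KDM2, 1.02 within KDM4, 0.84 within KDM5, 0.46 within KDM6, 0.91 within the PHD-finger group and 0.70 within KDM8. With the replicate block the means were 0.046, 0.12, 0.071, 0.76, 0.29 and 0.48 in the same order, against 0.29 over all hairpins. In that fit KDM6 was the highest and KDM2 the lowest, as without the block, but KDM2, KDM4, KDM5 and the PHD-finger group changed sign. The order changed with the libraries. Without AZA 1 the KDM6 mean was 0.060 and that of KDM8 was 0.16, without untreated 2 they were 0.15 and 0.39, and without untreated 3 they were equal at 0.50, with KDM5 the lowest at -0.10 and KDM2 at 0.073. Without untreated 1 the KDM6 mean was 0.69.

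The pool also held the enzymes that write the marks removed by these members. Of the 5 H3K36 methyltransferases, WHSC1L1, an NSD-family enzyme, was the only one called, where 1.21% of all genes were called. Its hairpins averaged 4.48, 4.08 and 5.10 log2 CPM untreated and 6.13, 6.36 and 6.29 with AZA, so it was higher with AZA by 1.71 ± 0.31 (adjusted p = 0.0431, limma), and its relative NSD1 differed by 0.67 ± 0.34. On the edgeR scale the 8 hairpins of WHSC1L1 averaged a log2 fold change of 0.78 ± 0.96 (SD), with 6 above 0. Of the 40 tested hairpins against these 5 genes, 0 were higher and 1 was lower at an unadjusted p below 0.05 (edgeR). The median gene difference of the 5 was 0.42. For the 2 H3K27 methyltransferases the difference was 0.67 ± 0.39 for EZH2 and -0.10 ± 0.30 for EZH1, catalytic subunits of the Polycomb complex whose mark KDM6B removes, and neither was called or had an unadjusted p below 0.05. Among the 8 H3K4 methyltransferases the median was 0.31 and 0 were called, with 2 higher at an unadjusted p below 0.05 (limma), against 14.3% of all genes. SETD1B (1.23 ± 0.36, adjusted p = 0.182, limma) and MLL2 (1.29 ± 0.45, adjusted p = 0.236, limma) had the smallest p. The 7 H3K9 methyltransferases had a median of 0.13, with SETDB1 at -0.44 ± 0.35 and EHMT2 at 0.55 ± 0.48, and 0 were called or had an unadjusted p below 0.05.

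The other lysine demethylases and JmjC proteins of the pool, 17 genes, had a median difference of 0.37, with 15 above 0 and 0 called. The 14 members had a median of 0.17 and all genes 0.25. Of the 17, 3 were higher at an unadjusted p below 0.05 (limma), against 14.3% of all genes. With the replicate block, where KDM1A was lost, 2 were, against 16.2%. KDM3B, a demethylase of H3K9, had the smallest p of the 17, at 0.97 ± 0.26 (adjusted p = 0.132, limma), and JARID2, a Polycomb partner with a JmjC domain but no demethylase activity, was at 1.23 ± 0.53 (adjusted p = 0.333, limma).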

How the data were processed

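SKK-1 cells carrying the Epi9 shRNA pool were compared between 3 untreated and 3 AZA libraries, which the labels number 1 to 3. The authors amplified the hairpin guide strands from genomic DNA by PCR, sequenced them and deposited raw counts per hairpin, 1 file per library, in which hairpins with 0 counts are not listed. CASAVA 1.9 and GRCh37 are named in the submitters' processing notes, whereas how reads were matched to hairpins was not given in the sources. PCR counts carried no molecular identifiers, so the upper limits given for 0 counts (3 counts) cover counting error only.

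Files were joined by hairpin, with absent hairpins set to 0. Those that exceeded 0.5 CPM in 3 or more libraries were tested with the edgeR 4.0.16 quasi-likelihood test (TMM, treatment only), and gene means of log2 CPM (prior count 2, genes with 3 or more tested hairpins) with limma 3.58.1, in R 4.3.3. Benjamini-Hochberg adjustment ran over all hairpins or genes, and the threshold was 0.05. DESeq2 1.42.0 was used as an alternative. Scripts were tested on simulated data first. Other alternatives were size factors, library totals, filters, the edgeR exact test, summed or median hairpins, and leaving out each library.

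Libraries of one number were taken as pairs, since each transduced culture was divided between the groups, although the labels name no culture. The deviations of same-numbered libraries from their group means correlated at 0.114 to 0.140, and those of other pairs at -0.0984 to -0.0251. No 2 libraries of one group agreed within sampling noise. Members and gene lists were chosen with earlier results of these data known. The text names all 14 members, hairpins with an unadjusted p below 0.05, the smallest-p, highest and lowest hairpin of each gene, and the 2 genes of smallest p in each other list. Hairpins whose groups were apart or that overlap a neighbour, further KDM4A, KDM4B and KDM6B hairpins, and those of extreme abundance were named after their values were seen. Guide sequences of the members were not analysed here. Genes on the Y chromosome were left out of the lists.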

Additional observations from a re-analysis of the deposited data

How the results depend on the processing

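No member hairpin was called with any edgeR setting, and DESeq2's Wald test called 1 (PHF2.4714). At an unadjusted p below 0.05, that test put 7 members lower (7.38% of the pool), and leaving out each library in turn gave 1 to 6 lower and 0 to 4 higher (2.11% to 4.59% and 0.925% to 4.11% of the pool). Library totals and the lack of a filter each gave 1 called gene (KDM6B). Genes with 5 or more hairpins lower numbered 4 with library totals, 3 with the replicate block and 5 to 8 without 1 library, and those higher 2 to 4 without 1 library. The KDM4 mean became 0.059 with library totals and 0.12 with the replicate block. The KDM6 mean became 1.48 with no filter and 0.76 with the replicate block, and ran from 0.060 (without AZA 1) to 0.69 (without untreated 1). The mean of JHDM1D, PHF2 and PHF8 became 0.29 with the replicate block. The KDM2, KDM4, KDM5, KDM8 and PHD-finger means changed sign without at least 1 library, and the KDM6 mean did not. The causes of these shifts were not tested. The paired fit with the replicate block called 0 member hairpins and 0 member genes, as the unpaired fit did. The 15 hairpins named for their p kept their direction in all 195 alternative values, but the size moved by over 1.5 times for 9 of the 15 when 1 library was left out. Another 123 values that answer a comparison moved by less than the spread between pairs or, for counts, by at most 1.5 times. Depth limits the 5 of 112 members with 0 counts in a library, whose level there is known only up to the limit that 3 counts allow.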
